A study of Mus musculus with 4 samples.

Results

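The genes described here were 10 Toll-like receptors and partner proteins of mouse, out of 18695 genes in the count matrix. They were the receptors Tlr2, Tlr4, Tlr7, Tlr9 and Tlr13, the receptor-like protein Cd180 with its partner Ly86, the co-receptor Cd14, the chaperone Unc93b1 and the adaptor Myd88. They were taken by name, and each is given by library and cell type, with WT and Tet2 KO kept apart.

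Toll-like receptors sense parts of microbes and, for some members, nucleic acids. Tlr2 and Tlr4 act at the cell surface, whereas Tlr7, Tlr9 and Tlr13 act in endosomes, to which Unc93b1 carries them from the endoplasmic reticulum. Most of them signal through Myd88 to NF-kB and interferon regulatory factors, and in bone marrow they are best known from monocytes, dendritic cells and their progenitors.

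The data were single-cell RNA counts from mouse bone marrow in 4 libraries, 1 for each genotype and sort. Tet2 KO mice carried Tet2 fl/fl alleles and Mx1-Cre, and WT mice were littermates with the floxed alleles and no Cre. All the mice received pI:pC, which the labels give as 4 doses of 12.5 ug/g. The Mx1 promoter that drives Cre responds to interferon and is not restricted to blood cells, and pI:pC, a mimic of double-stranded RNA, is itself a ligand of Tlr3. One sort took granulocyte-monocyte progenitors (GMP; Lin- cKit+ Sca1- CD34+ CD16/32+), and the other took Lin- progenitors together with CD11b+ cells (Lin-/CD11b+). No library was replicated, so no test was made, and genotype cannot be told apart from mouse or preparation. Both sorts of a genotype carry the same code and replicate number in the labels. They may share mice or preparation, so agreement between the sorts is not replication.

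The Lin-/CD11b+ libraries held 1924 WT cells with 22681380 unique molecular identifiers (UMIs, each marking 1 captured RNA molecule) and 3068 Tet2 KO cells with 34024599 UMIs. The GMP libraries held 1258 WT cells with 22890469 UMIs and 2719 Tet2 KO cells with 42561110 UMIs. Levels are given as CPM, the UMIs of a gene scaled by the sum of all UMIs of that library and cell type, and all intervals are 95% intervals that cover counting error only. For shares of cells with a UMI, every cell was first thinned at random to 5000 UMIs, a depth that no cell fell short of. The supplementary data of the study list the cell numbers of the Tet2 KO GMP and WT Lin-/CD11b+ libraries the other way round, and the deposited assignment was used here. For the sort the cells bear this assignment out, with 252 monocyte-like and 150 plasma-like cells in the WT Lin-/CD11b+ library and 4 and 0 in the Tet2 KO GMP library.

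Tet2 itself stood at 13.4 CPM in WT and 20.7 CPM in Tet2 KO cells from Lin-/CD11b+. In the GMP sort it stood at 13.02 CPM in WT and 17.0 CPM in Tet2 KO cells. Tet2 was thus not lower in the libraries labelled Tet2 KO, but these are tags from the 3' end of the transcript and do not check the deletion, which the study reports from blood DNA. Of 8932 distinct barcodes, 37 occurred in more than 1 library. Cells with 5% or more mitochondrial UMIs numbered 44 and 73 in the WT and Tet2 KO Lin-/CD11b+ libraries, and 116 and 180 in the GMP libraries.

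Cell types were gated on marker genes that include no member of the set. Cells that passed more than 1 gate were left out, as were cells that passed none and were not in the unnamed class described below. Cells of more than 1 gate made up 7.8% of WT and 10.6% of Tet2 KO cells from Lin-/CD11b+, and 9.06% and 5.92% from GMP. Cells of no gate made up 16.8% and 16.0% from Lin-/CD11b+, and 15.6% and 19.1% from GMP. Every named type had at least 2 of its own markers among its 10 leading genes, and none had more markers of another class there. Some of these markers are gate genes, such as F13a1 and Ms4a6c of the mono-biased cells, so this outcome was in part set by the gates and is no independent check of the names. Ly86 was among the 10 leading genes of the mono-biased progenitor-like cells. The WT and Tet2 KO Lin-/CD11b+ libraries gave 252 and 443 monocyte-like cells, 260 and 369 mono-biased progenitor-like cells, 211 and 483 cells like hematopoietic stem and progenitor cells (HSPC-like), and 79 and 76 cells like plasmacytoid dendritic cells (pDC-like). The GMP libraries gave 271 and 572 mono-biased progenitor-like and 314 and 697 neutro-biased progenitor-like cells. Cells with progenitor-stage markers and hardly any lineage marker were kept as an unnamed progenitor-stage class, since none of the stage markers was among their leading genes. Monocyte-like and mono-biased progenitor-like cells were parted by a sum of 20 UMIs of Mpo, Ctsg, Elane, Prtn3 and Ms4a3, and 211 of these 2171 cells lay within 5 UMIs of that value. Their gates also differed in the monocytic markers, with a sum of at least 4 UMIs from 1 gene for monocyte-like cells. Mono-biased progenitor-like cells needed at least 5 UMIs from 2 genes.

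Basophil-like cells had little of most members, so their shares are given for comparison and are not an independent measure of free RNA. Ly86 was found in 4.62% of WT and 1.33% of Tet2 KO basophil-like cells of the GMP sort at 5000 UMIs, and in none of the 60 basophil-like Tet2 KO cells from Lin-/CD11b+, with an interval of 0 to 5.96. That 0 depends on the random thinning, since 2 of these cells (3.33%) had a UMI both without thinning and with another seed. Elane, an abundant transcript of neutrophilic progenitors, was found in 76.9% of WT and 84% of Tet2 KO basophil-like cells of the GMP sort. In the same cells Mpo, Ctsg, Elane, Prtn3 and Ms4a3 summed to 7024 CPM in WT and 9354 CPM in Tet2 KO. The source of this Elane was not tested. Camp, a neutrophil transcript, and Igkc were each found there in 1.54% of WT and 0% of Tet2 KO cells. Igkc, a plasma cell transcript, was found in 89.3% of WT and 87.6% of Tet2 KO monocyte-like cells from Lin-/CD11b+. Median depth before thinning was 8629.5 UMIs in WT and 8288 in Tet2 KO monocyte-like cells, and 7456 and 8300 in the basophil-like cells of the same sort.

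The submitters' processing notes name the build mm10, which is GRCm38. RefSeq sequences of GRCm38.p6, from 250 bases before to 50 bases after a gene's start, were at hand for 6 of the 10 members, and Tlr4, Tlr7, Cd14 and Unc93b1 had no entry. The promoters of Ly86, Myd88, Tlr2 and Tlr13 are shown because their levels differed between WT and Tet2 KO monocytic cells, as given after them, each with the strand of its gene, 5' to 3'. Ly86 lies at chr13:37345095-37345394 on the plus strand, Myd88 at chr9:119339969-119340268 on the minus strand, Tlr2 at chr3:83841559-83841858 on the minus strand and Tlr13 at chrX:106143025-106143324 on the plus strand. Capitals mark matches to a motif that fewer than 10% of promoters hold.
Ly86: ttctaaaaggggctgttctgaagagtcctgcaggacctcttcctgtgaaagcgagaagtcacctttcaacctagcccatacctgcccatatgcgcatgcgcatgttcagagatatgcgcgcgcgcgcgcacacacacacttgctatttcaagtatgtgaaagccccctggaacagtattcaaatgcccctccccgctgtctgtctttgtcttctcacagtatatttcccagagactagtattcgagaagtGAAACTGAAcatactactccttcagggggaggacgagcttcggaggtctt
Myd88: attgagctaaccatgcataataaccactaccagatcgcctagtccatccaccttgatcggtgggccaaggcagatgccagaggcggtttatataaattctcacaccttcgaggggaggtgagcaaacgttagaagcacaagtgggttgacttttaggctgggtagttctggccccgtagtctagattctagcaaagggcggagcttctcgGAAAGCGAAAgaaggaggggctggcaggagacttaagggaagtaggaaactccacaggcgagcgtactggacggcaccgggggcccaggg
Tlr2: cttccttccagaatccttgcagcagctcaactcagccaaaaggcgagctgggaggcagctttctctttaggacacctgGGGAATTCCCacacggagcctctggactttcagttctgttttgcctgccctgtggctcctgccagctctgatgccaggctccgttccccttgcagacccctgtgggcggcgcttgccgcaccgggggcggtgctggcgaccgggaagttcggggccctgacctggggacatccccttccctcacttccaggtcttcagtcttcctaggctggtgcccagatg
Tlr13: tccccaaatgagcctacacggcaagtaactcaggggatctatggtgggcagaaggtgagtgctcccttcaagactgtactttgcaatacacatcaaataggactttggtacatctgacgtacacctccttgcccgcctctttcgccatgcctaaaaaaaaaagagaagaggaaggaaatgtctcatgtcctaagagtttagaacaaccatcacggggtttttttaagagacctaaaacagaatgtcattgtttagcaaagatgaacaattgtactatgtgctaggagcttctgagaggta

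Motifs were chosen, shortened and widened while these promoters were being read, so a match is no more than a description of the window. All 13 patterns considered were searched on both strands of 32851 promoters, and several contain one another. An interferon response pattern of 10 bases, held by 3.44% of promoters, matched Myd88, and its form with the last base left off, GAAANNGAA, held by 8.56%, matched Myd88 and Ly86. A composite Ets and Irf pattern of 10 bases (2.72% of promoters) matched no member. The Ets core AGGAAG (35.4%) was in Ly86, Tlr13, Tlr2 and Tlr9, and its longer form GAGGAAG (13.6%) was in Tlr13 and Tlr9.

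The kappa B consensus, held by 5.8% of promoters, matched Tlr2. Patterns of the kappa B kind with 1 and 2 free positions (0.411% and 1.47% of promoters) matched no member, and those with 4 and 5 free positions (20.7% and 50.8%) matched Tlr2. GGGCGG (35.7%) was in Myd88 and Tlr2. TGANTCA (7.81%) was in Tlr9, whose promoter is not shown. TTGCNNAA (10.8%) was in Tlr13.

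Tet2 acts on methylated cytosine, mostly at CpG, so CpG sites in these windows were counted. Ly86 and Myd88 had 13 each, Tlr2 had 11, Tlr13 and Cd180 had 5 and Tlr9 had 0, against a median of 7 over all promoters (quartiles 3 and 20). In the annotation of the build, Myd88 overlaps Slc22a14 on its own strand and Acaa1a on the other, so some UMIs may be shared, and Cd180 overlaps Mast4 on the other strand.

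Ly86 (MD-1), which is needed for Cd180 to reach the cell surface, had a graded level over cell types. In the WT Lin-/CD11b+ library it stood at 506 CPM (450 to 567) in pDC-like, 409.8 CPM (384 to 437) in monocyte-like and 351 CPM (332 to 372) in mono-biased progenitor-like cells. It stood at 89.1 CPM (75.6 to 104) in unnamed progenitor-stage, 76.0 CPM (65.2 to 88.1) in HSPC-like, 47.0 CPM (38.7 to 56.7) in neutro-biased progenitor-like, 34.1 CPM (24.8 to 45.8) in neutrophil-like and 24.4 CPM (18.5 to 31.7) in plasma-like cells. The places of the HSPC-like, unnamed and neutro-biased cells in this order depend on the gates, since a stricter gate gave 27.9 CPM in HSPC-like cells, and gates of an earlier version gave 205 CPM in unnamed and 75.5 CPM in neutro-biased cells. The intervals of the unnamed and HSPC-like cells overlapped, as did those of the neutro-biased and neutrophil-like and of the neutrophil-like and plasma-like cells. At 5000 UMIs per cell, 84.1% (79.0 to 88.4) of WT monocyte-like cells had a UMI of Ly86, and without thinning 93.7% did.

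In mono-biased progenitor-like cells Ly86 was lower in the Tet2 KO library of both sorts. The level was 351 CPM in WT and 274 CPM in Tet2 KO cells from Lin-/CD11b+, a log2 ratio of -0.36 (-0.47 to -0.25). GMP cells had 297 and 232 CPM, a log2 ratio of -0.35 (-0.45 to -0.26). The share of these cells with a UMI went the same way, from 82.3% to 70.7% in the Lin-/CD11b+ sort. In monocyte-like cells the difference was small, with 409.8 and 377 CPM and a log2 ratio of -0.12 (-0.24 to -0.00), an interval that only just missed 0.

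Ly86 was also lower in less committed Tet2 KO cells from Lin-/CD11b+. HSPC-like cells had 76.0 CPM in WT and 42.0 CPM in Tet2 KO, a log2 ratio of -0.86 (-1.16 to -0.55). These levels depend on the gate, since a stricter gate gave 27.9 CPM in WT and 13.8 CPM in Tet2 KO, a log2 ratio of -1.02. Over all libraries, 400 of the 1081 cells that passed the gate were at the smallest sum. That count includes cells of more than 1 gate, and the Ly86 UMIs that these 400 cells held were not counted. HSPC-like cells of the GMP sort had 29.0 and 29.7 CPM and a log2 ratio of 0.03 (-0.58 to 0.65), but 3 of the 86 WT cells held 59.5% of the 42 WT UMIs. The sorts did not hold like cells under this name. Mpo, Ctsg, Elane, Prtn3 and Ms4a3 summed to 12560 CPM in WT and 18324.5 CPM in Tet2 KO cells from GMP. From Lin-/CD11b+ they summed to 4355 and 4173 CPM. The monocytic markers also differed within the GMP sort, at 652 CPM in WT and 1224 CPM in Tet2 KO. Unnamed progenitor-stage cells had 89.1 and 46.7 CPM in the Lin-/CD11b+ sort, a log2 ratio of -0.93 (-1.27 to -0.60), and 76.2 and 55.7 CPM in the GMP sort, a log2 ratio of -0.45 (-0.66 to -0.24). Tet2 KO cells like classical dendritic cells had 376 CPM (335 to 421), with too few WT cells for a ratio. In pDC-like cells Ly86 stood at 506 and 509 CPM, and in neutro-biased progenitor-like cells of the GMP sort at 38.9 and 42.8 CPM, and for both the interval of the ratio spanned 0.

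**Figure D1:**
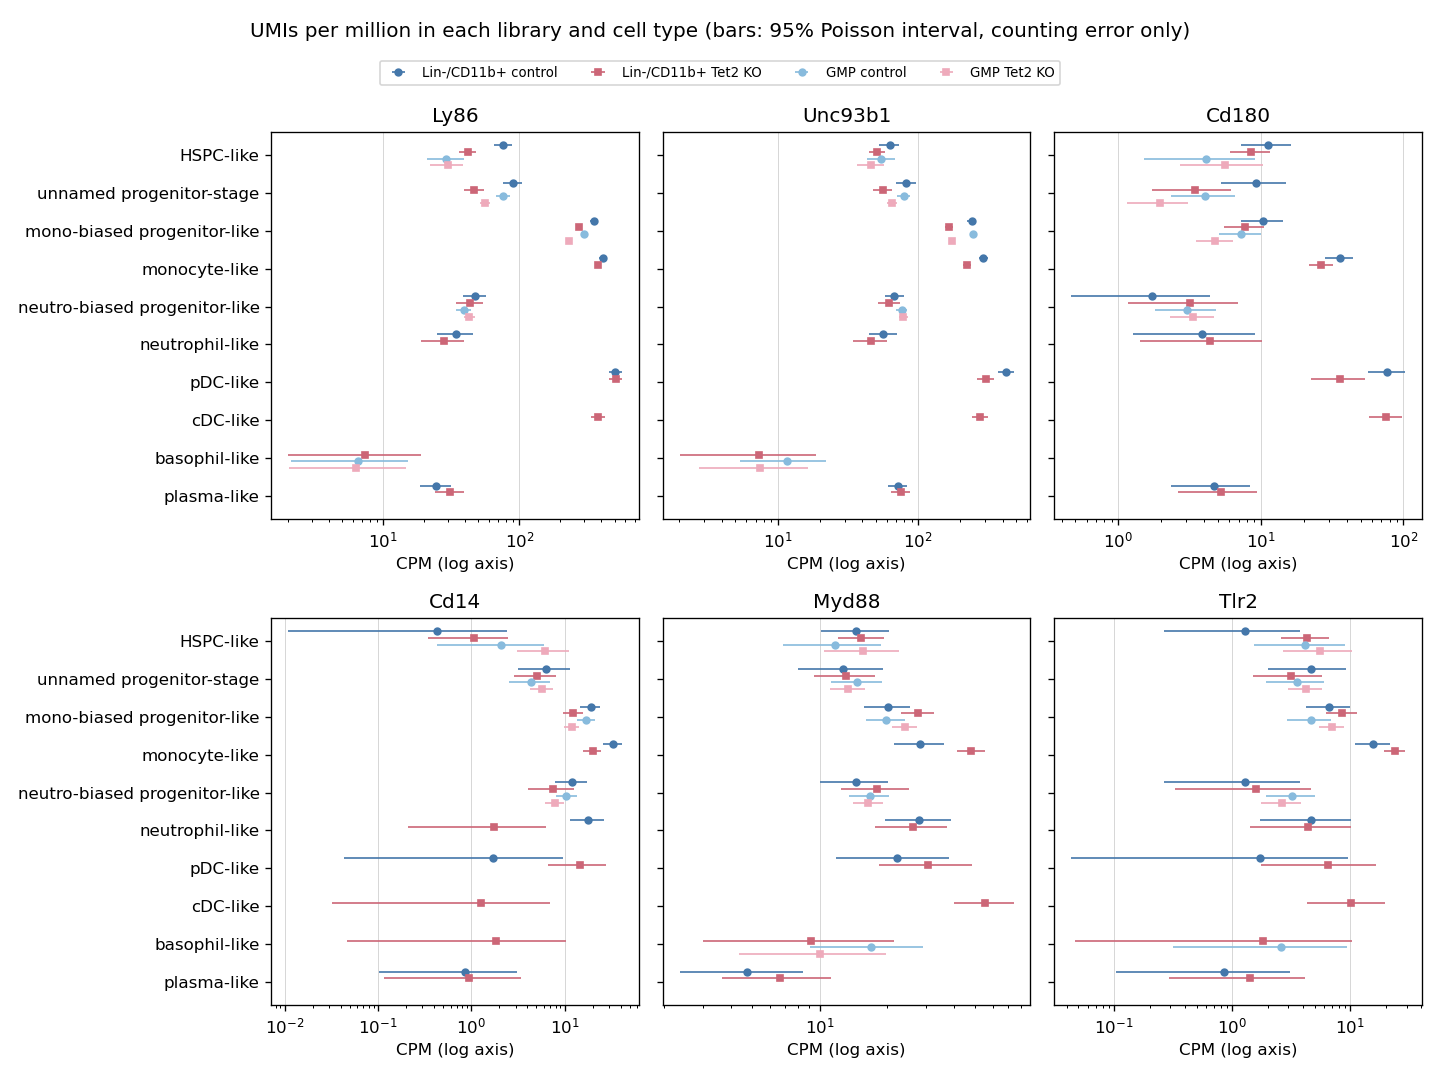
CPM (horizontal log axis) of Ly86, Unc93b1, Cd180, Cd14, Myd88 and Tlr2 in each cell type with at least 50 cells, with 1 point per library and 95% Poisson intervals for counting error only. Types with no UMI of a gene have no point, and Ly86 reaches 506 CPM in WT pDC-like cells and 34.1 CPM in WT neutrophil-like cells.

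Unc93b1, the chaperone of the endosomal receptors, was also high in pDC-like, monocytic and cDC-like cells (like classical dendritic cells). In the WT Lin-/CD11b+ library it stood at 424 CPM (373 to 480) in pDC-like, 292 CPM (270 to 315) in monocyte-like and 241 CPM (225 to 258) in mono-biased progenitor-like cells. It stood between 56.7 CPM in neutrophil-like and 82.8 CPM in unnamed progenitor-stage cells of that library, with 62.7 CPM in HSPC-like cells. The upper end depends on the gates, since those of an earlier version gave 142 CPM in unnamed cells. The Tet2 KO cDC-like cells had 278 CPM (243 to 317) of Unc93b1, and the WT library held fewer than 50 such cells. Plasma-like cells, at 72.0 CPM (61.6 to 83.8), lay within that range, with an interval that overlapped those of the HSPC-like and unnamed cells.

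Unc93b1 was lower in Tet2 KO cells of the monocytic types, of the pDC-like type and of the unnamed progenitor-stage class. Mono-biased progenitor-like cells had 241 and 166 CPM in the Lin-/CD11b+ sort, a log2 ratio of -0.54 (-0.68 to -0.40), and 248 and 174 CPM in the GMP sort, a log2 ratio of -0.51 (-0.61 to -0.40). Monocyte-like cells had 292 and 224 CPM, a log2 ratio of -0.38 (-0.53 to -0.24). The pDC-like cells had 424 and 303 CPM, a log2 ratio of -0.49 (-0.77 to -0.21), and the share with a UMI was 93.7% in WT and 73.7% in Tet2 KO. Unnamed progenitor-stage cells from Lin-/CD11b+ had 82.8 and 56.1 CPM, a log2 ratio of -0.56 (-0.89 to -0.23). Those from GMP had 79.0 and 65.6 CPM, a log2 ratio of -0.27 (-0.47 to -0.07). In neutro-biased progenitor-like cells the levels of WT and Tet2 KO lay close together, with 76.3 and 78.8 CPM in the GMP sort and a log2 ratio of 0.05 (-0.12 to 0.22).

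The mono-biased progenitor-like cells were gated on monocytic markers, so a similar sum of these markers in WT and Tet2 KO is in part set by the gate. All 9 were detected in each library, and their sum was 6161 CPM in WT and 6233 CPM in Tet2 KO cells from Lin-/CD11b+, with Ly6c2 the most abundant. For GMP the sum was 5153 and 5258 CPM. One marker of that list, Irf8, a transcription factor of monocyte and dendritic cell development, was also lower in Tet2 KO, at 616 CPM in WT and 417 CPM in Tet2 KO cells from Lin-/CD11b+ and at 601 and 449 CPM in the GMP sort. In monocyte-like cells Irf8 stood at 707 and 371 CPM, a wider gap than that of Ly86. Irf8 was lower along with Ly86 in HSPC-like (227 and 147 CPM) and unnamed progenitor-stage cells (175 and 133 CPM) from Lin-/CD11b+. In pDC-like cells, where Ly86 hardly differed and Unc93b1 was lower in Tet2 KO, Irf8 stood at 2679 and 2134 CPM. In neutro-biased progenitor-like cells Irf8 was higher in Tet2 KO, at 83.8 and 113 CPM from Lin-/CD11b+ and at 84.9 and 107 CPM from GMP. Plasma-like cells had 63.9 and 94.9 CPM, so the genes did not go together in every type. These Irf8 levels were looked up after Irf8 was found among the genes most like Ly86 and Unc93b1, and the part of Irf8 in them was not tested.

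Cd180 (RP105), a receptor-like protein related to Tlr4 and known as a brake on its signalling, was at its highest in dendritic-like cells. The 99 Tet2 KO cDC-like cells had 75.5 CPM (57.6 to 97.2), and the WT library held only 31 such cells, under the minimum of 50. The 79 WT pDC-like cells had 77.0 CPM (56.1 to 103) and the 76 Tet2 KO pDC-like cells had 35.6 CPM (22.3 to 54.0), a log2 ratio of -1.11 (-1.92 to -0.34). The share with a UMI was 34.2% in WT and 17.1% in Tet2 KO pDC-like cells, while no UMI of Cd180 was found in any basophil-like cell. In monocyte-like cells Cd180 stood at 35.8 and 26.5 CPM, and the interval of the log2 ratio of -0.44 (-0.87 to 0.00) touched 0. In mono-biased progenitor-like cells it was at 10.4 and 7.73 CPM in the Lin-/CD11b+ sort and at 7.22 and 4.79 CPM in the GMP sort, with intervals that spanned 0. Unnamed progenitor-stage cells from Lin-/CD11b+ had 16 UMIs in WT and 11 in Tet2 KO, a log2 ratio of -1.43 (-2.68 to -0.23).

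Cd14, a co-receptor that hands lipopolysaccharide to Tlr4, was lower in Tet2 KO cells of the monocytic types. Monocyte-like cells had 33.1 CPM (26.0 to 41.6) in WT and 19.96 CPM (15.8 to 24.8) in Tet2 KO, a log2 ratio of -0.73 (-1.20 to -0.25). Mono-biased progenitor-like cells had 19.1 and 12.4 CPM in the Lin-/CD11b+ sort, a log2 ratio of -0.62 (-1.14 to -0.11), and 17.0 and 11.98 CPM in the GMP sort, a log2 ratio of -0.51 (-0.93 to -0.09). With a stricter gate the GMP value was close to 0, at -0.01. Neutrophil-like cells had 23 UMIs in 136 WT cells and 2 UMIs in 117 Tet2 KO cells, a log2 ratio of -3.35 (-6.48 to -1.34), and 3 of the WT cells held 34.8% of those UMIs. With cells of more than 1 gate kept, this ratio was -1.93. The pDC-like cells went the other way, with 1 UMI in WT and 9 in Tet2 KO, a log2 ratio of 3.09 (0.24 to 8.55) from fewer than 20 UMIs. In the neutrophil-like type the median ratio of all genes was shifted to 0.16, and scaling the pair of libraries by a trimmed mean of gene ratios (TMM) moved values by -0.19.

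Few UMIs were found for the surface receptors Tlr2 and Tlr4. Tlr2, a receptor for bacterial lipoproteins, was highest in monocyte-like cells among types with at least 50 cells, with 15.7 CPM (10.9 to 21.8) in WT and 24.0 CPM (19.4 to 29.3) in Tet2 KO, a log2 ratio of 0.61 (0.04 to 1.22). In mono-biased progenitor-like cells it was at 6.64 and 8.50 CPM in the Lin-/CD11b+ sort and at 4.61 and 6.98 CPM in the GMP sort, with intervals that spanned 0. Tlr4, the receptor for lipopolysaccharide, had 2 UMIs in WT and 19 in Tet2 KO monocyte-like cells, a log2 ratio of 2.41 (0.35 to 5.55). That ratio rests on 2 WT UMIs, and at 5000 UMIs Tlr4 was found in 0.397% of WT and 2.26% of Tet2 KO monocyte-like cells. Ly96 (MD-2), which binds lipopolysaccharide together with Tlr4, was at 46.1 and 47.4 CPM in the same cells, a log2 ratio of 0.04 (-0.31 to 0.40). In unnamed progenitor-stage cells of the GMP sort Ly96 stood at 4.84 CPM (2.91 to 7.56) in WT and 11.1 CPM (9.10 to 13.5) in Tet2 KO. In mono-biased progenitor-like cells of both sorts it was lower in Tet2 KO, with overlapping intervals.

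Of the endosomal receptors, Tlr13, a sensor of bacterial ribosomal RNA, was at its highest in monocyte-like cells among types with at least 50 cells, and neutrophil-like cells had 5 UMIs in WT and 7 in Tet2 KO. It stood at 9.40 CPM (5.82 to 14.4) in WT and 16.2 CPM (12.5 to 20.7) in Tet2 KO monocyte-like cells, a log2 ratio of 0.79 (0.06 to 1.57), and in mono-biased progenitor-like cells of the sort at 1.16 and 1.35 CPM. Tlr7, a sensor of single-stranded RNA, had 9 UMIs in WT and 26 in Tet2 KO monocyte-like cells, a log2 ratio of 0.69 (-0.45 to 1.97), so no difference was detectable at this depth. Tlr7 also had 5 UMIs in WT and 3 in Tet2 KO pDC-like cells, where the WT level was 8.55 CPM (2.78 to 19.96), and 8 UMIs in WT and 0 in Tet2 KO neutrophil-like cells, which is a lower level by interval from fewer than 20 UMIs. Tlr9, a sensor of unmethylated CpG DNA, had 4 UMIs in each whole Lin-/CD11b+ library, and 2 in WT and 1 in Tet2 KO of the GMP sort. In monocyte-like cells Tlr9 was at 0 in both genotypes, with intervals of the share of cells with a detected UMI that reached up to 1.45% in WT and 0.829% in Tet2 KO. At this depth that sets no limit on the share of cells that express it.

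Myd88, the adaptor shared by most of these receptors, was detected in every type with at least 50 cells. In Tet2 KO cells it was highest in cDC-like cells at 55.4 CPM (40.2 to 74.3), an interval that overlapped that of monocyte-like cells. In the WT Lin-/CD11b+ library it ranged from 4.72 CPM in plasma-like to 28.2 CPM (21.7 to 36.1) in monocyte-like cells, close to the 27.9 CPM (19.6 to 38.7) of neutrophil-like cells. Monocyte-like cells had 28.2 CPM in WT and 47.9 CPM (41.4 to 55.2) in Tet2 KO, a log2 ratio of 0.77 (0.35 to 1.20), and the share with a UMI was 14.3% (10.2 to 19.2) in WT and 23.0% (19.2 to 27.2) in Tet2 KO. Mono-biased progenitor-like cells had 20.2 and 27.6 CPM in the Lin-/CD11b+ sort, a log2 ratio of 0.45 (0.03 to 0.89), and 19.9 and 24.2 CPM in the GMP sort, a log2 ratio of 0.28 (-0.06 to 0.64). In HSPC-like cells from Lin-/CD11b+ it was 14.6 and 15.4 CPM.

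**Figure D2:**
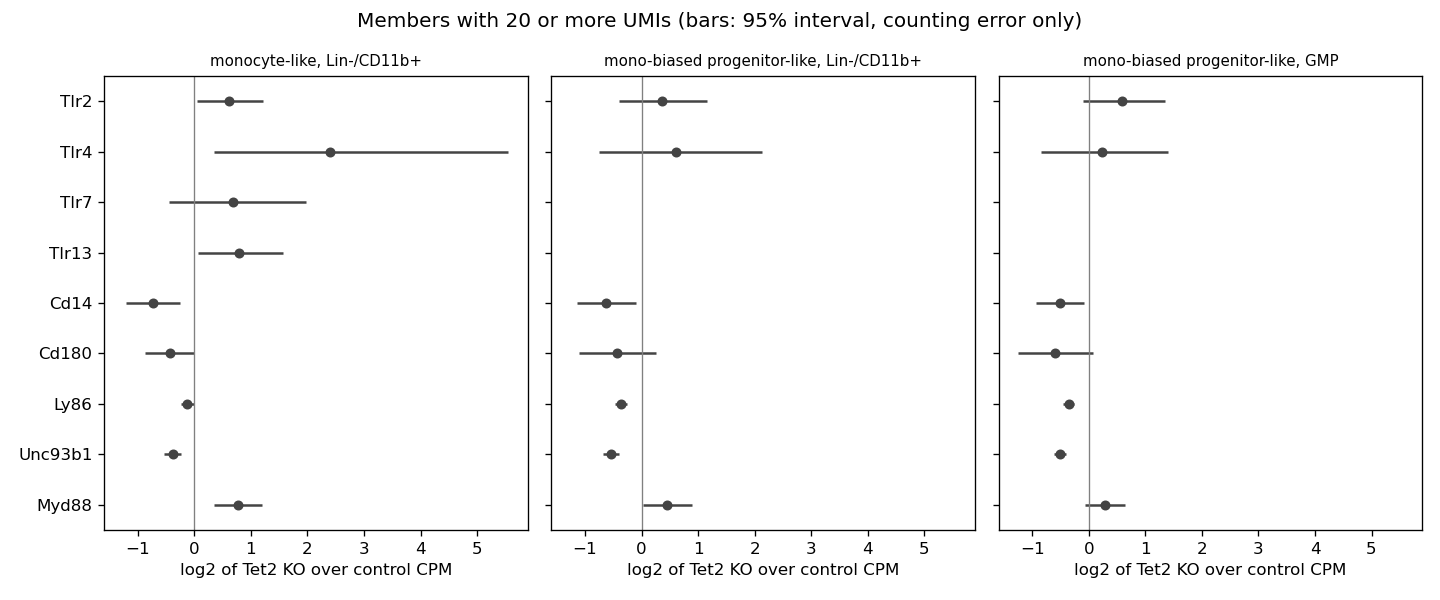
Log2 ratio of Tet2 KO over control (WT) CPM (horizontal axis) for members with at least 20 UMIs in monocyte-like and mono-biased progenitor-like cells, with 95% conditional binomial intervals for counting error only. Myd88 lies at 0.77 and Unc93b1 at -0.38 in monocyte-like cells, on opposite sides of the line at 0.

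Among the 9 members with at least 20 UMIs in monocyte-like cells, Tlr4, Tlr13 and Myd88 were at least 1.5-fold higher in Tet2 KO on a scale of CPM + 1, against 9.77% of all genes tested. The minimum is on the sum of both libraries, and Tlr4, with 2 UMIs in WT, reached it through the Tet2 KO library. With a stricter gate the log2 ratio of Tlr13 was 0.32, which is under 1.5-fold. On the same scale Cd14 was the 1 member at least 1.5-fold lower, against 5.41% of all genes. Counting instead intervals wholly on 1 side of 0, a rule added after the data were seen, 4 members were higher, against 11.3% of genes, and 3 were lower, against 9.23%. The 4 were Tlr2, Tlr4, Tlr13 and Myd88, and the 3 were Cd14, Ly86 and Unc93b1.

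In mono-biased progenitor-like cells from Lin-/CD11b+, 0 of 7 members were 1.5-fold higher, against 5.66% of genes, and 1, Cd14, was lower, against 4.38%. From GMP 0 of 7 were higher, against 3.02%, and 0 were lower, against 3.86%. By interval, Myd88 was higher in the Lin-/CD11b+ sort, against 11.1% of genes, and no member was in the GMP sort, against 12.2%. Ly86, Cd14 and Unc93b1 were lower by interval in both sorts, 3 of 7 members against 7.04% and 9.34% of genes. Nearly all of these differences were under 1.5-fold, and the intervals of Ly86 and Unc93b1 are narrow because these genes have many UMIs.

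Among 5 members in HSPC-like cells from Lin-/CD11b+, Tlr2 was past 1.5-fold higher, against 7.06% of genes, and Ly86 was lower, against 3.8%. Tlr2 had 3 UMIs in WT and 20 in Tet2 KO, so it too reached the minimum through the Tet2 KO library. By interval 0 were higher there, against 6.28%, and Ly86 was lower, against 6.66%. For HSPC-like cells from GMP 0 of 3 members were past 1.5-fold, against 4.58% higher and 11.3% lower, or differed by interval, against 5.89% and 8.87%. Unnamed progenitor-stage cells from Lin-/CD11b+ had 0 of 5 members higher, against 6.9%, and Cd180 and Ly86 lower, against 4.92%. By interval 0 were higher, against 5.01%, and Ly86, Cd180 and Unc93b1 were lower, against 5.48%. Those from GMP had Tlr4 higher out of 7, against 3.18%, or by interval 7.31%, with 2 UMIs in WT and 30 in Tet2 KO, so that it reached the minimum through the Tet2 KO library. They had Cd180 lower, against 3.84%, and by interval Ly86 and Unc93b1, against 9.7%. In unnamed cells Ly86 was thus lower in both sorts by interval, and past 1.5-fold in Lin-/CD11b+, and the difference between the sorts was not tested.

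Neutro-biased progenitor-like cells from Lin-/CD11b+ had 0 of 4 members higher, against 7.05% of genes, and Cd14 lower, against 5.64%. The log2 ratio of this Cd14 difference was -0.68 (-1.72 to 0.29), and with a stricter gate it changed sign, to 0.45. By interval none differed, against 5.37% higher and 6.29% lower. Those from GMP had 0 of 7 higher, against 2.97%, and Tlr4 lower, against 3.57%. By interval 0 were higher, against 8.29%, and Tlr4 was lower, against 12.1%, so 1 of 7 was near the background. The neutrophil-like cells had 0 of 4 higher, against 17.7%, or by interval 13.3%, and Cd14 lower, against 6.62%, or by interval 4.92%. With 23 UMIs in WT and 2 in Tet2 KO, Cd14 reached the minimum through the WT library.

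The pDC-like cells had 0 of 4 members higher, against 8.51% of genes, or by interval 4.95%. They had Cd180 lower, against 9.66%, and by interval Cd180 and Unc93b1, against 4.75%. The plasma-like cells had 0 of 4 past 1.5-fold, against 16.2% higher and 6.09% lower, and none by interval, against 14.1% and 3.07%. In basophil-like cells from GMP the 1 member with enough UMIs, Myd88, was not higher, against 8.75%, but lower, against 11.1%, and by interval it did not differ, against 6.92% and 6.32%.

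Markers of other cell types also differed between the libraries in monocyte-like cells. All 10 neutrophil markers were detected there in both genotypes, and their sum was 1474 CPM in WT and 4617 CPM in Tet2 KO, with S100a8 the most abundant at 836 and 3503 CPM. The median over cells was 2 and 3 UMIs at 5000 UMIs per cell. In mono-biased progenitor-like cells the neutrophil sum was 377 and 965 CPM in the Lin-/CD11b+ sort, and 34.5 and 230.2 CPM in the GMP sort, where Ngp and Ltf were at 0 in both genotypes. The 6 plasma markers summed to 1700.1 CPM in WT and 936 CPM in Tet2 KO monocyte-like cells, led by Igkc, and the 11 classical dendritic markers to 3986 and 4522 CPM, led by Cst3. The gate markers differed too, with medians of 11 and 14 UMIs of F13a1, Ccr2, Csf1r, Klf4 and Ms4a6c per cell, and the part of all these in the ratios of the members was not tested.

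**Figure D3:**
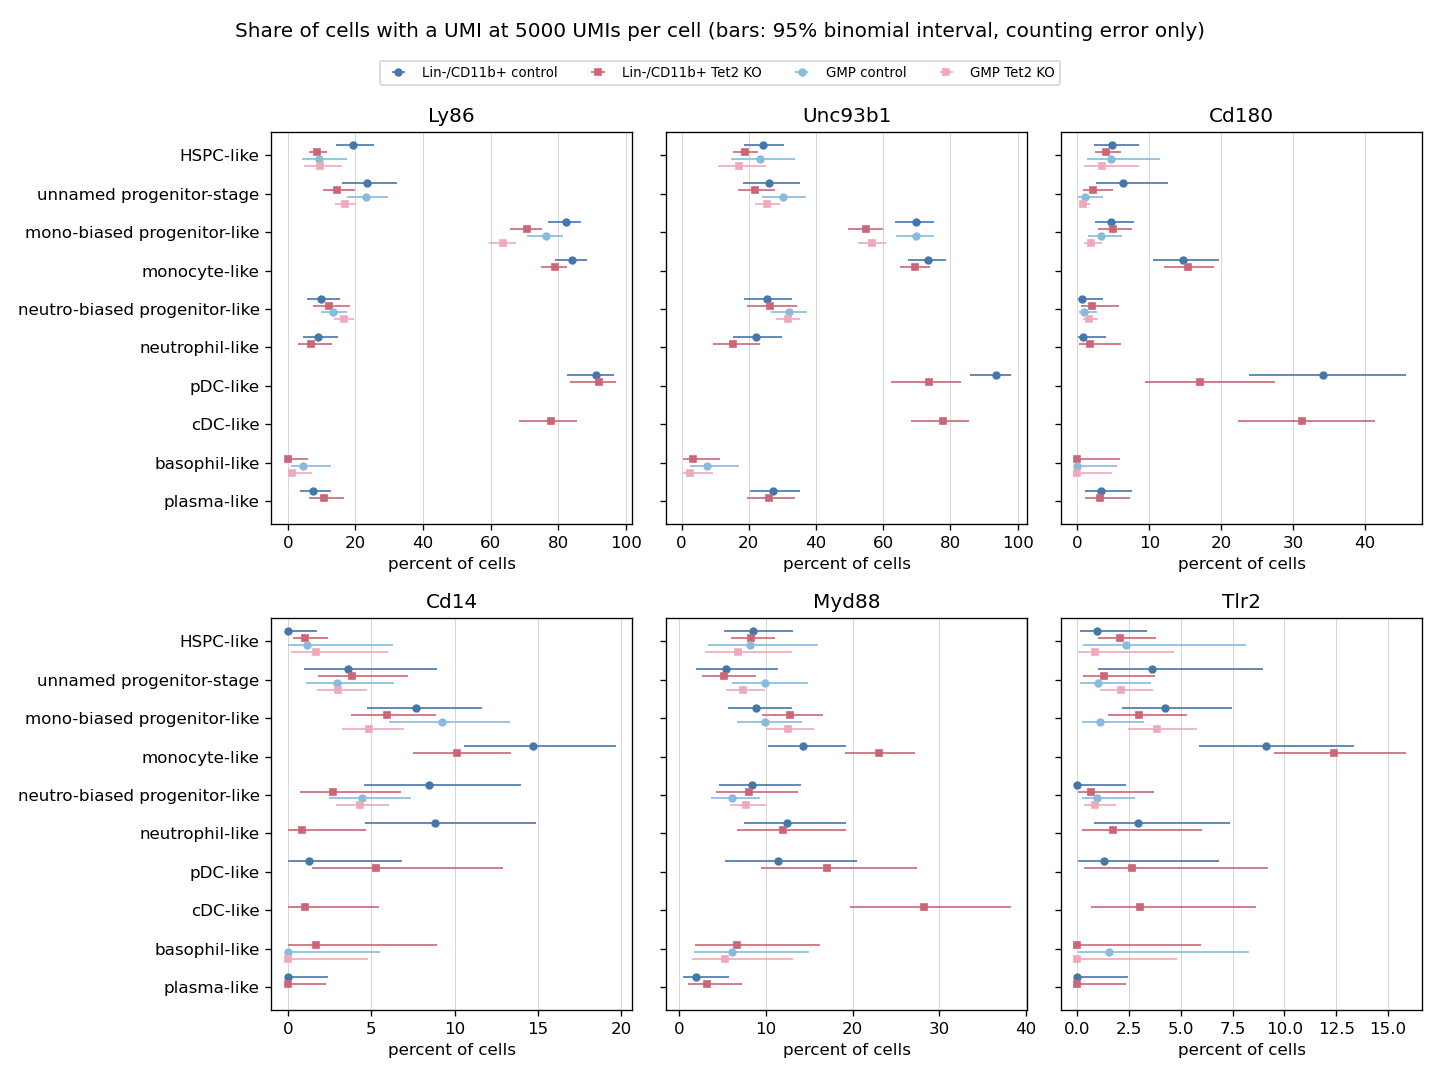
Percent of cells with at least 1 UMI at 5000 UMIs per cell (horizontal axis) for the same genes, cell types and libraries as in the plot of levels, with 95% binomial intervals for counting error only. Ly86 was found in 84.1% of WT monocyte-like cells and Myd88 in 14.3%.

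Cd180 and Ly86 were both found in 12.7% (8.85 to 17.5) of WT monocyte-like cells, against a product of the single shares of 12.4%. In WT pDC-like cells the share was 30.4% (20.5 to 41.8), against a product of 31.1%, and in Tet2 KO pDC-like cells 15.8% (8.43 to 26.0), against 15.8%. As Ly86 was found in most of these cells, the share with both is close to the share with Cd180 whatever the cells, and says little about co-detection. Tlr13 and Unc93b1 were both found in 7.45% (5.18 to 10.3) of Tet2 KO monocyte-like cells, against a product of 6.28%.

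Across 28 profiles of a library and cell type, the genes most like a member were ranked by Pearson's r of log2(CPM + 10) among 6656 genes. Profiles of 1 library share cells, depth and preparation, so r is a description only. Ly86 was most like Unc93b1 (r of 0.958), Irf8 (0.948) and Rasa4 (0.946). Unc93b1 was most like Ly86, Irf8 (0.948) and Map3k1 (0.909). Each of these members thus had the other as its closest gene over all 4 libraries. With the Lin-/CD11b+ libraries alone, Unc93b1 (0.955), Rasa4 (0.948) and Irf8 (0.943) all left the 3 genes most like Ly86, although Ly86 was still the gene most like Unc93b1. Cd180 was closest to Lbh (0.946), Plekho1 (0.945) and Cd2ap (0.938). Myd88 was closest to Ehbp1l1 (0.922) and Wdr1 (0.913), and Cd14 to Gdpd3 (0.821), Fkbp1b (0.811) and Rbks (0.810). The other 5 members had under 100 UMIs in every profile and were not ranked. With an offset of 1 CPM in place of 10, none of the 3 genes named for Cd180, and none of those for Cd14, was among the 3 closest.

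A list of 44 other genes of the pathway gave a background to the members. In monocyte-like cells 7 of the 36 genes tested were at least 1.5-fold higher in Tet2 KO and 0 were lower, against 9.77% and 5.41% of all genes, and the median log2 ratio of CPM + 1 was 0.12, against 0.03 for all genes. Irf7, a transcription factor that drives interferon genes, had the highest ratio of CPM + 1, at 16.1 CPM in WT and 44.4 CPM in Tet2 KO, a log2 ratio of CPM of 1.46 (0.94 to 2.02), whereas Tlr1 had a higher ratio of CPM from few UMIs. The lowest was Ticam2, an adaptor of Tlr4, at 14.8 and 10.7 CPM, a log2 ratio of -0.46 (-1.15 to 0.24).

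In mono-biased progenitor-like cells, 2 genes of the list were higher and 1 was lower in each sort, out of 36 tested. These counts were near the shares of all genes, 5.66% and 4.38% for Lin-/CD11b+ and 3.02% and 3.86% for GMP, and no gene of the list was past 1.5-fold the same way in both sorts of any type. The highest and lowest ratios in types that 1 sort holds were those of Rela and Slc15a4 in pDC-like, Traf3 and Tbk1 in neutrophil-like, Nfkb1 and Irak4 in plasma-like, and Tbk1 and Tnfaip3 in basophil-like cells. For Tnfaip3, an inhibitor of NF-kB, basophil-like cells of the GMP sort had 48.3 CPM in WT and 13.8 CPM in Tet2 KO, a log2 ratio of -1.81 (-2.93 to -0.81). For Nfkb1 in plasma-like cells the values were 11.6 and 22.9 CPM, a log2 ratio of 0.98 (0.27 to 1.72), where the median of all genes was shifted to 0.18. The other 6 ratios had intervals that spanned 0.

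Of the other Toll-like receptors, Tlr1, Tlr3, Tlr6, Tlr11 and Tlr12 had at least 20 UMIs in a library. Tlr3, a sensor of double-stranded RNA, had 83 UMIs in the Tet2 KO and 15 in the WT Lin-/CD11b+ library, of which 58 and 10 were in cDC-like cells. Its level in them was 73.0 CPM (55.4 to 94.4) in Tet2 KO and 47.2 CPM (22.6 to 86.7) in the 31 WT cells, with overlapping intervals. In the GMP libraries Tlr3 went the other way, with 18 UMIs in WT, at 0.786 CPM (0.466 to 1.24), and 7 in Tet2 KO, at 0.164 CPM (0.0661 to 0.339). Of these 7 UMIs, 3 were in unnamed progenitor-stage and 1 in mono-biased progenitor-like cells. The share of cDC-like cells was 1.61% in WT and 3.23% in Tet2 KO from Lin-/CD11b+. In the GMP sort it was 0.715% and 0.257% (9 and 7 cells). The part of this share in the whole-library levels of Tlr3 was not tested. Tlr11 had 16 of its 22 UMIs of the Tet2 KO Lin-/CD11b+ library in cDC-like cells. Tlr1 had 5 UMIs in WT and 27 in Tet2 KO monocyte-like cells, a log2 ratio of 1.59 (0.19 to 3.32), whereas Tlr6, its alternative as a partner of Tlr2, had 11 and 16.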

How the data were processed

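The authors counted UMIs with Cell Ranger 3.1.0, and used Seurat for filtering. The deposited matrix holds whole counts, with a table that assigns each cell to a library. All these cells were kept up to the gating and in the whole-library levels. The mm10 build is from the submitters' processing notes. Each cell was thinned to 5000 UMIs (seed 1) and gated on marker sums, and unthinned UMIs were summed per library and type as CPM. No doublet caller was run. Cells of more than 1 gate, or of none and outside the unnamed class, were left out of the types. Ratios need 50 cells per library, and counts of members at least 20 UMIs. Intervals were exact Poisson, binomial and conditional binomial, and a library at 0 was set to a floor of 3 counts.

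The members and lists were chosen with earlier results of these data known. The gates are a later version, set after marker levels, and member levels of both genotypes under an earlier version, had been seen. The interval rule, the motifs and the look at Irf8 were also chosen after values were seen. Named genes were all members, the other receptors with at least 20 UMIs in a library, Ly96, pathway genes past 1.5-fold the same way in both sorts or with the highest and lowest ratio where 1 sort holds a type, and the 3 genes most like each member, of which 1 is not reported here.

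Tools were Python 3.11.15, numpy 2.4.6, scipy 1.17.1, pandas 2.3.3, matplotlib 3.10.9, R 4.3.3 and edgeR 4.0.16, the last for TMM factors as an alternative. The computation of ratios was tested on simulated data.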

Additional observations from a re-analysis of the deposited data

Results flagged for a closer look

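Tlr4 differed in opposite directions in 2 cell types of the GMP sort, each time with an interval on 1 side of 0. In unnamed progenitor-stage cells it had 2 UMIs in WT and 30 in Tet2 KO, a log2 ratio of 2.67 (0.69 to 5.78). In neutro-biased progenitor-like cells it had 24 and 17 UMIs, a log2 ratio of -1.28 (-2.27 to -0.33). The difference between these types was not tested, and the first ratio rests on 2 WT UMIs and was 0.95 under gates of an earlier version.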

How the results depend on the processing

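Of 67 ratios of members with at least 20 UMIs, all 25 with an interval on 1 side of 0 kept their sign under the TMM factors, the mean over cells, the stricter gate, cells of more than 1 gate kept, cells with 5% or more mitochondrial UMIs left out, and an earlier version of the gates, where each could be computed. These settings reuse most of the same cells and UMIs, and the 25 were picked for lying away from 0, so a kept sign says little. Among them, Cd14 in mono-biased progenitor-like cells of the GMP sort went from -0.51 to -0.01 under the stricter gate. The other sort, which holds other cells, is not among these settings. Ratios from fewer UMIs, such as Cd14 in pDC-like and Tlr7 in neutrophil-like cells, were not put through these settings. The earlier gates were added after their values had been seen. Under them Cd180 in mono-biased progenitor-like cells of the Lin-/CD11b+ sort, whose interval spans 0, went from -0.43 to 0.32, and 25 of 108 levels left their interval. Under the stricter gate 19 of 103 levels did, and Cd180 in neutro-biased progenitor-like cells of the GMP sort went from 0.13 to 1.53. With cells of 2 gates kept, Ly86 in neutrophil-like cells went from -0.29 to 0.70 and Unc93b1 there from -0.29 to 0.40. These 3 main intervals also span 0. In the other sort, Ly86 in HSPC-like cells had 0.0327, not -0.86, and Tlr4 in unnamed progenitor-stage cells -0.0782, not 2.67. The HSPC-like cells of the sorts differed in progenitor-stage markers, as given above, and the cause of these differences was not tested.

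Counts past 1.5-fold, summed over the types of a sort, moved with the settings. A gene was counted once for each type in which it passed, so these sums are not numbers of genes. The 8 lower in the Lin-/CD11b+ sort were repeats of Cd14, Cd180 and Ly86. No share over all genes was computed for the sums, so they show only how the counts move, and no direction is read from them. In the Lin-/CD11b+ sort, members gave 4 higher and 8 lower, with 2 and 3 at a 2-fold threshold, 1 and 4 with an offset of 10 CPM, and 10 higher with no minimum of UMIs. In the GMP sort they gave 1 higher and 3 lower, with 0 lower at 2-fold, 0 and 0 with an offset of 10 CPM, and 2 and 5 with no minimum. The pathway list gave 22 higher and 10 lower in the Lin-/CD11b+ sort, with 48 and 37 with no minimum and 46 and 39 for the Reactome list. In the GMP sort it gave 6 and 9, with 13 and 22 with no minimum and 14 and 34 for the Reactome list. The Reactome list is longer and no minimum admits more genes. The 8 counts stayed within 1.5 times under the TMM factors. Without thinning, 91 of 108 shares left their interval.

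No paired analysis was possible because there was 1 library per genotype and sort. Intervals leave out the spread between mice, so they are too narrow for a statement on genotype. Many members had few UMIs, and free RNA and cells of mixed type were not removed by a caller.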
